A study of Mus musculus with 294 samples.

Results

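TGF-beta signalling was followed through 9 genes in single cells of the neural crest lineage from the outflow tract of the embryonic mouse heart. The genes were the ligands Tgfb1, Tgfb2 and Tgfb3, the receptors Tgfbr1, Tgfbr2 and Tgfbr3, the signal carrier Smad3, the inhibitor Smad7 and the binding protein Ltbp1. They were chosen by name, and all 9 were among the 15124 genes of the count table. Every cell came from Wnt1-Cre; R26-EYFP mice, in which the Wnt1-Cre transgene switches on the yellow fluorescent protein EYFP in neural crest cells and their descendants, so the reporter marks ancestry and not a current cell type. The embryos ranged in age from E11.5 to E17.5, with E12.5 and E14.5 in between, and no treatment is named. EYFP-positive cells were sorted, captured one by one on a Fluidigm C1 microfluidic chip and photographed there, and their full-length cDNA was sequenced. Age, animal and chip are not given for a single cell, so the cells form 1 group without replicates and no test between groups was made. Cells are set apart below by the first digit of their name, from 1 to 7, called the name series. What that digit stands for is not stated, so age, animal, chip and day cannot be told apart in any difference between name series.

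TGF-beta ligands are secreted in a latent form, in which the propeptide stays wrapped around the mature ligand. LTBP1 ties this latent complex to matrix fibres, and integrins, proteases or mechanical pull release the ligand. The free ligand brings together the type II receptor TGFBR2 and the type I receptor TGFBR1, which phosphorylates SMAD2 and SMAD3, and SMAD7 blocks this step as a feedback inhibitor. TGFBR3, also called betaglycan, is a co-receptor that presents ligand, and TGFB2 in particular, to TGFBR2. In the developing heart the pathway is known for its part in cushion formation, outflow tract septation and smooth muscle differentiation, and mice without Tgfb2 have outflow tract defects.

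The 7 name series held 58, 48, 38, 38, 34, 34 and 44 cells. Total counts ran from 34046 to 3033857 reads per cell, and the series medians from 635879 to 1630832. Cells of series 1 had a median of 7718 genes with a read, against 3123 to 4676.5 in the other series, so shares of cells are also given without series 1. All 8 mesenchyme markers measured were detected in at least 50% of cells, from 59.2% for Twist1 to 99.7% for Col3a1. Markers of 4 other cell types were rarer, apart from the epicardial gene Tbx18. The 4 endothelial genes measured were detected in 0.680% (Tie1) to 29.6% (Tek) of cells, the 6 cardiomyocyte genes in 1.02% to 19.4%, the 6 glial genes in 3.06% to 10.5%, and the 3 epicardial genes in 1.70% (Aldh1a2) to 51.7% (Tbx18).

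The promoters of the 2 ligands at the ends of the range of detection, Tgfb2 and Tgfb1, and of Ltbp1, the binding protein detected in about as many cells as Tgfb2, are shown as the 250 bases before the RefSeq start on GRCm38.p6, 5′ to 3′ on the gene's strand. Capitals mark motif letters, searched on both strands. The TATA box was searched as TATAAA and the E-box as CACGTG. The cyclic AMP response element was searched as TGACGTCA, and the AP-1 site, which none of the 3 windows held, as TGACTCA. The GC box was searched as GGGCGG, which reads CCGCCC on the other strand, and the SMAD box as CAGAC, which reads GTCTG on the other strand. Tgfb2 lies at chr1:186622792-186705989 on the minus strand, Tgfb1 at chr7:25687002-25705077 on the plus strand and Ltbp1 at chr17:75005568-75392512 on the plus strand (GENCODE M21, GRCm38). The windows lie upstream of the genes' annotated first exons. For Ltbp1, the more upstream of its RefSeq starts is shown.
Tgfb2, chr1:186705990-186706239, minus strand: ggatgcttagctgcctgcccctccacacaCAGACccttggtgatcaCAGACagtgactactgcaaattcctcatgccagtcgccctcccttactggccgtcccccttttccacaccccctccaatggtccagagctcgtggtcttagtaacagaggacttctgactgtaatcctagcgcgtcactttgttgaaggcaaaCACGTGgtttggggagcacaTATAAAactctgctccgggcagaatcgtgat
Tgfb1, chr7:25686752-25687001, plus strand: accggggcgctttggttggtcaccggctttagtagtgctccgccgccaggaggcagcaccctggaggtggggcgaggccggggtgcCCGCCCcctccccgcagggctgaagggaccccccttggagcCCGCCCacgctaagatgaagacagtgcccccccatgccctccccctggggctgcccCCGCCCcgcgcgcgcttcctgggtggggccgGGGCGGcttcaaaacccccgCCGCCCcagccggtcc
Ltbp1, chr17:75005279-75005528, plus strand: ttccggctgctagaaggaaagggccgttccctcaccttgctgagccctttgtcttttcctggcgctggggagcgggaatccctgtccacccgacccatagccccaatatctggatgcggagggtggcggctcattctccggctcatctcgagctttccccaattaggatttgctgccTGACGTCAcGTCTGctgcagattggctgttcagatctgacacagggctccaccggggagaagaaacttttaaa

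The 3 windows differed in composition and in these letters. The Tgfb2 window had 53.6% G and C, with TATAAA starting 31 bases before the start, CACGTG starting 51 bases before and CAGAC further upstream at 2 places. The Tgfb1 window had 75.2% G and C, 5 GC boxes, and none of the other motif letters searched. The Ltbp1 window had 56.8% G and C, with TGACGTCA starting 73 bases before the start and GTCTG 64 bases before. Of 32851 RefSeq promoter windows of the same length, 12.4% held TATAAA, 6.02% CACGTG, 1.55% TGACGTCA, 4.46% TGACTCA, 32.7% a GC box and 42.2% a SMAD box. A match here is a match of letters only.

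Tgfb2 was the ligand of most cells. A gene was called detected in a cell at 10 CPM or more, where CPM are the reads of the gene per 1000000 reads of the cell. Tgfb2 was detected in 84.01% of cells (exact Clopper-Pearson 95% interval 79.3% to 88.01%), and in 83.9% without series 1. Tgfb3 (chr12:86056745-86079041) was detected in 39.8% of cells (34.2% to 45.6%) and Tgfb1 in 12.6% (9.02% to 16.9%), or 34.75% and 8.90% without series 1, the latter just below the interval for all cells. These intervals and the others below speak of counting error alone, and since the reads carry no molecular identifiers they are not separate molecules. Tgfb2 ran from 0 to 2696 CPM with a median of 220.8 CPM and a mean of 369.7 ± 453.5 CPM (SD over cells). Tgfb3 ran from 0 to 780.6 CPM with a median of 1.12 CPM, and Tgfb1 from 0 to 343.3 CPM with a median of 0. Few cells carried most of the rarer ligands' reads: 29 cells held 91.04% of the summed CPM of Tgfb1, 60.8% of that of Tgfb3 and 39.4% of that of Tgfb2.

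The receptors were detected less evenly than the main ligand. Tgfbr1, the type I receptor (chr4:47353222-47414931), was detected in 59.2% of cells (53.3% to 64.85%), with a median of 33.2 CPM and a highest value of 3449 CPM. Tgfbr2, the type II receptor (chr9:116084293-116175360), was detected in 30.3% (25.1% to 35.9%), with a median of 0 and a highest value of 784.8 CPM. Tgfbr3, the co-receptor (chr5:107106570-107289629), was detected in 11.2% (7.85% to 15.4%), with a median of 0 and a highest value of 648.2 CPM. Tgfbr2 and Tgfbr3 were thus not detected in most cells at this depth. Both shares fell outside their intervals when series 1 was left out, to 24.15% for Tgfbr2 and 6.78% for Tgfbr3, while Tgfbr1 stood at 58.05%. A median of 0 reads does not show that a cell lacks the transcript, because cDNA capture from single cells is incomplete.

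Downstream, the inhibitor Smad7 was more widely detected than Smad3, while Smad2, the other signal carrier, is given with the pathway genes below. Smad7 (chr18:75367529-75395935) was detected in 67.01% of cells (61.3% to 72.4%), with a median of 33.1 CPM and a highest value of 1351 CPM. Smad3 (chr9:63646767-63757994) was detected in 20.4% (15.95% to 25.5%), with a median of 0 and a highest value of 1857 CPM. Ltbp1 was detected in 84.35% of cells (79.7% to 88.3%), with a median of 316.6 CPM (95% order-statistic interval 243.1 to 397.4) and a highest value of 7293 CPM. Ltbp1 and Tgfb2 were also alone among the 9 in reaching 100 CPM in most cells, at 69.7% and 68.4%. Next came Tgfbr1 at 39.5%, Smad7 at 29.25% and Tgfb3 at 20.4%, and Tgfb1 was last at 2.04%.

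Divided by exonic length, the mean levels were ordered Tgfb2, Ltbp1, Tgfbr1, Smad7, Tgfb3, Tgfbr2, Smad3, Tgfbr3 and Tgfb1. Mean CPM per exonic kilobase was 63.8 for Tgfb2, 50.95 for Ltbp1, 31.95 for Tgfbr1, 21.6 for Smad7 and 20.65 for Tgfb3. It was 6.27 for Tgfbr2, 5.74 for Smad3, 1.84 for Tgfbr3 and 1.45 for Tgfb1. The SD over cells exceeded the mean for every member. The intervals of the medians per kilobase overlapped for Tgfb2 (31.95 to 46.04) and Ltbp1 (22.7 to 37.2), and for Tgfbr1 (2.38 to 9.73) and Smad7 (5.09 to 10.2). They did not overlap for the neighbours Ltbp1 and Tgfbr1, or for Smad7 and Tgfb3 (0 to 1.09). From Tgfb3 on, every such interval began at 0. By coding length Tgfbr1 came before Ltbp1 (131.2 and 103.6 mean CPM per coding kilobase) and Tgfb1 before Tgfbr3 (5.575 and 4.72).

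A cell had a median of 4 of the 9 members detected (order-statistic interval 4 to 4), with a range of 0 to 9. The most frequent number was 4, in 74 cells, followed by 5 in 66 cells and 3 in 62 cells. All 9 were found in 2 cells and none in 1 cell. The median was 5 in series 1, 3 in series 6 and 4 in each of the other 5 series.

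**Figure D1:**
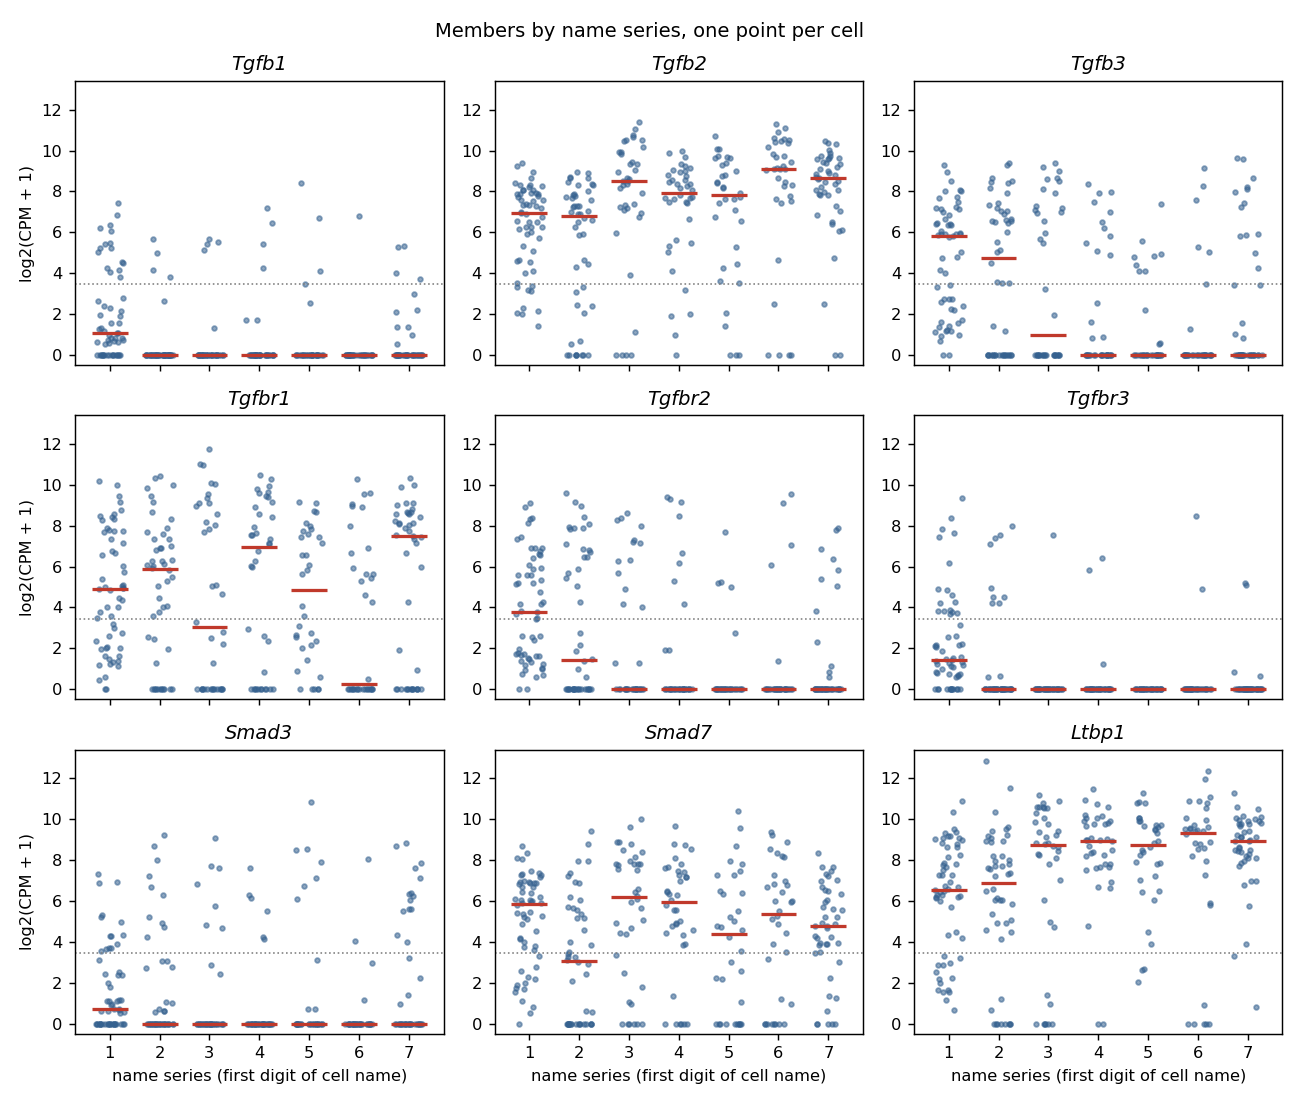
Level of each of the 9 genes as log2(CPM + 1) on the vertical axis by name series on the horizontal axis, with 1 point per cell, a red bar at the series median and a dotted line at 10 CPM. Tgfb2 and Ltbp1 lie above the line in most cells of every series, with lower medians in series 1 and 2. Of the points above the line, most belong to series 1 to 3 for Tgfb3 and Tgfbr2, and to series 1 and 2 for Tgfbr3.

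Tgfb2 and Ltbp1 had their lowest levels in series 1 and 2. For Tgfb2, the lowest, median and highest values were 1.645, 120.2 and 663.4 CPM in series 1 and 0, 110.8 and 485.1 CPM in series 2. They were 0, 360.8 and 2696 CPM in series 3, 0, 244.5 and 1022 CPM in series 4, and 0, 224.3 and 1673 CPM in series 5, and then 0, 543.2 and 2531 CPM in series 6 and 0, 397.0 and 1427 CPM in series 7. The cells of all series overlapped, but no cell of series 1 or 2 exceeded 663.4 CPM, and the medians of series 6 (interval 301.9 to 922.7) and series 7 (267.3 to 545.2) lay clear of those of series 1 (75.5 to 183.9) and series 2 (20.6 to 155.9). Relative to the mean over the rest of the cells, after adding 10 CPM on either side, mean Tgfb2 was 0.38 times in series 1 (154.6 against 422.5 CPM), 0.35 times in series 2 and 2.28 times in series 6 (743.1 against 320.8 CPM). The other 4 series were within 2-fold of the rest.

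Ltbp1 also had its lowest medians in series 1 and 2. Its lowest, median and highest values were 0.588, 93.3 and 1927 CPM in series 1 and 0, 120.8 and 7293 CPM in series 2. The medians of series 3 to 7 were 431.2, 491.1, 429.2, 652.1 and 491.9 CPM, and the highest values in these series ran from 2349 to 5303 CPM. The interval of the series 1 median (72.8 to 181.9 CPM) lay below those of series 3 to 7, whose lower ends were at 219.5 CPM or above. The mean in series 1 was 0.39 times that of the other cells (235.7 against 620.6 CPM), while series 2, which held the single highest cell, was at 0.74 times, and at 0.47 times without the highest 5% of cells of each series. Ltbp1 was detected in 74.1% to 95.5% of the cells of each series.

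Tgfb3, Tgfbr2 and Tgfbr3 ran the other way in their shares of cells. Tgfb3 was detected in 60.3%, 58.3% and 44.7% of cells in series 1, 2 and 3, and in 28.95%, 23.5%, 14.7% and 29.55% in series 4 to 7. Its median was 55.02 CPM in series 1, 26.6 CPM in series 2, 1.445 CPM in series 3 and 0 in series 4 to 7, and its highest value was between 166.4 and 780.6 CPM in each series. Positive cells were thus fewer in series 4 to 7, although the cell with the highest Tgfb3 was in series 7. Mean Tgfb3 was 0.23 times that of the other cells in series 5 (10.4 against 77.6 CPM).

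Tgfbr2, which binds the ligand first, was detected in 55.2%, 41.7% and 34.2% of cells in series 1 to 3, and in 21.05%, 11.8%, 11.8% and 18.2% in series 4 to 7. In series 1 only 2 of 58 cells had no Tgfbr2 read, against 21 of 48 in series 2. This was not particular to Tgfbr2: 0 to 2 cells of series 1 had no read of Tgfb2, Tgfb3, Tgfbr1, Smad7 or Ltbp1. For Tgfb1, Tgfbr3 and Smad3 it was 13 to 23 cells. At 100 CPM or more, the shares of Tgfbr2 were 18.97%, 27.1% and 18.4% in series 1 to 3 and 13.2%, 2.94%, 8.82% and 6.82% in series 4 to 7. Mean Tgfbr2 was 0.29 times that of the other cells in series 5 and 0.42 times in series 7. The means did not follow the order of the shares. They were 63.9, 89.2 and 52.4 CPM in series 1 to 3, and 65.4 CPM in series 4 and 44.1 CPM in series 6. Series 4 was at 1.27 times the other cells and series 6 at 0.87 times. Tgfbr3 was detected in 29.3% and 18.75% of cells in series 1 and 2, and in 0.0% to 5.88% in series 3 to 7. In series 5 none of 34 cells had a Tgfbr3 read, which allows a share of cells with a read of up to 8.82%. Mean Tgfbr3 was 2.53 times that of the other cells in series 1 (32.9 against 6.92 CPM), 0.42 times in series 5 and 0.49 times in series 7. Without the 5% of cells highest in Tgfbr3 in each series, an alternative chosen after seeing the data, series 1 stood at 1.91 times.

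The remaining members showed no such shared order. Tgfbr1 had medians of 28.5, 58.1, 7.35, 122.8, 32.8 and 0.212 CPM in series 1 to 6 and its highest median in series 7, where 59.1% of cells reached 100 CPM. Its mean was highest in series 3, which held the cell at 3449 CPM, at 1.98 times that of the other cells. That value passed 2-fold with 1 CPM added (2.025 times) and after thinning every cell to 1 read total (2.24 times), where series 1 was at 0.48 times. Smad7 had medians of 56.6, 7.34, 71.35, 60.1, 20.3, 40.7 and 26.1 CPM, with means from 0.57 times (series 2 and 7) to 1.86 times (series 3) that of the other cells. After thinning, series 2 was at 0.35 times. Smad3 was 3.04 times the mean of the other cells in series 5 (92.8 against 23.8 CPM) and 0.46, 0.47 and 0.41 times in series 1, 4 and 6. The series 5 value rested on few cells, since only 7 of its 34 cells had Smad3 detected and 1 of them reached 1857 CPM, and without the highest 5% of cells it was 1.885 times. Tgfb1 was detected in 27.6% of cells in series 1 and in 2.94% to 11.8% elsewhere. Its mean was 14.65 CPM in series 1 against 5.50 CPM in the other cells, which the 10 CPM added to both reduce to 1.59 times. With 1 CPM added, Tgfb1 was at 2.41 times in series 1 and 2.035 times in series 5, and at 0.37, 0.49 and 0.42 times in series 2, 6 and 7.

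In all, 14 of the 63 values of 9 genes by 7 series were at least 2-fold from the rest, 3 higher (4.76%) and 11 lower (17.5%). Among the 8853 genes that reached 10 CPM in 10% of cells or more, 4.94% of such values were higher and 9.96% were lower. The share of higher values was near that of all genes, and the share of lower values was above it. The 7 comparisons share their cells, so the values of a gene are not independent. Tgfb1 and Tgfbr3 passed the 10% level only with series 1 included. After every cell was thinned to 286313 reads, which left out 30 shallower cells, all 14 held among 20 values at 2-fold, and the 63 shares moved by between -7.74 and 6.19 percentage points. Of the 10 calls outside series 1, 7 held when series 1 was left out of the comparison. The 3 that did not were Tgfb2 in series 6 (1.99 times) and Tgfbr3 in series 5 and 7 (0.55 and 0.64 times), and Tgfbr2 in series 2 became a call at 2.08 times.

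**Figure D2:**
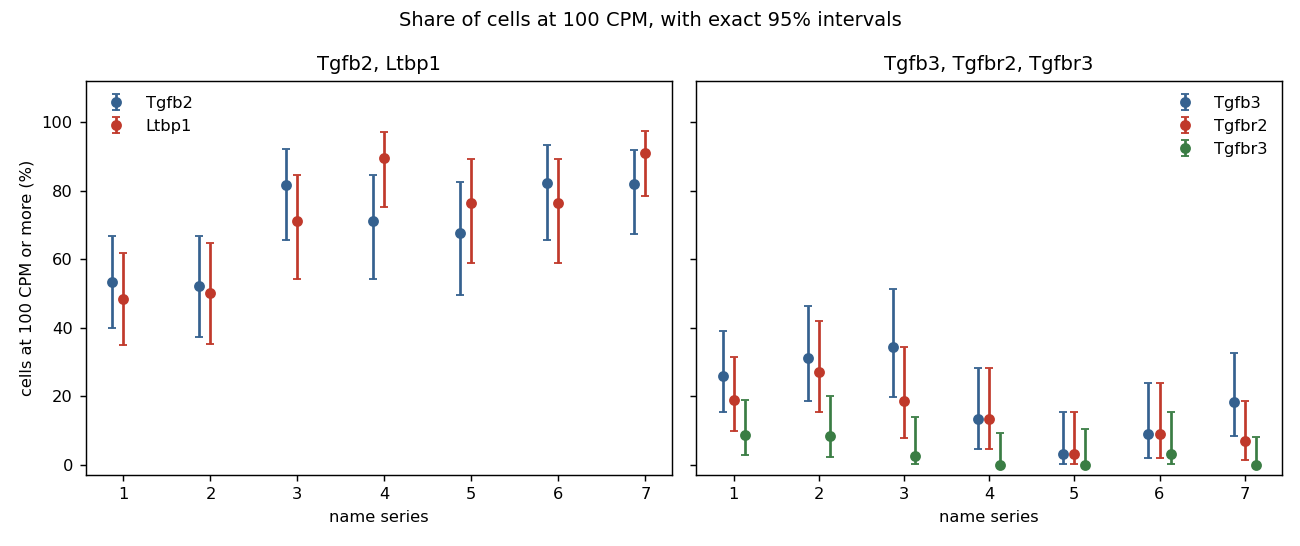
Share of cells at 100 CPM or more (vertical axis, percent) by name series (horizontal axis), with exact 95% intervals, for Tgfb2 and Ltbp1 (left) and for Tgfb3, Tgfbr2 and Tgfbr3 (right). Tgfb2 is at 53.45% and 52.1% in series 1 and 2 and between 67.65% and 82.35% in the others, and Tgfb3 is at 25.9% to 34.2% in series 1 to 3 and at 2.94% to 18.2% in series 4 to 7.

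As a share of the variance of log2(CPM + 1) over all cells, differences between name series took 18.7% for Tgfbr3, 14.85% for Tgfbr2, 14.8% for Tgfb3, 11.03% for Tgfb1, 10.1% for Ltbp1 and 9.89% for Tgfb2. The median over the 8853 genes was 5.51%, with quartiles of 3.23% and 9.11%. Smad7 was at 7.01%, Smad3 at 4.03% and Tgfbr1 at 2.26%. Without series 1 the values were 10.0% for Tgfb3, 9.86% for Tgfb2, 8.45% for Tgfbr2, 8.21% for Ltbp1 and 5.71% for Tgfbr3, against a median of 3.60% over genes, and Tgfb1 was at 1.29%.

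Other features of the cells also differed between name series. The summed level of the 20 matrix genes had medians of 48790, 46580 and 30760 CPM in series 1 to 3 and of 15140 to 22530 CPM in series 4 to 7. That split was close to the one in the shares of cells with Tgfb3 and Tgfbr2. The summed level of the 15 contractile genes had medians of 5150, 2693, 1294, 2944, 3928, 1739 and 3455 CPM. The 6 glial genes, all of them measured, had summed means of 125.3 and 420.7 CPM in series 1 and 2 and of 2.58 to 27.8 CPM in series 3 to 7, with medians of at most 7.40 CPM in every series. The 6 cardiomyocyte genes had a summed mean of 1371 CPM in series 7 and of 46.3 to 192.9 CPM in the others. Their part in the levels of the 9 members was not tested.

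The makeup of the ligands changed with the name series. Reads per exonic kilobase of the 3 ligands were compared within each cell with any ligand read, which left out 12 cells. Tgfb2 led in 76.2% of these cells (70.8% to 81.1%), Tgfb3 in 20.9%, or 59 cells, and Tgfb1 in 2.84%, or 8 cells. Tgfb2 took a median of 94.3% of a cell's ligand reads per kilobase, and at least 90% in 55.3% of cells. The mean share of Tgfb2 was 53.8% and 55.9% in series 1 and 2, 73.3% in series 3, and 84.1%, 90.65%, 92.9% and 84.1% in series 4 to 7. Tgfb3 made up most of the rest, with 38.2% and 41.6% in series 1 and 2, 23.5% in series 3 and 5.22% to 13.9% in series 4 to 7. Tgfb3 led in 20 of 58 cells in series 1 and 20 of 46 in series 2, and in 1 of 31 cells in series 5. By coding length Tgfb2 led in 81.2% of cells, which was outside the interval by exonic length.

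**Figure D3:**
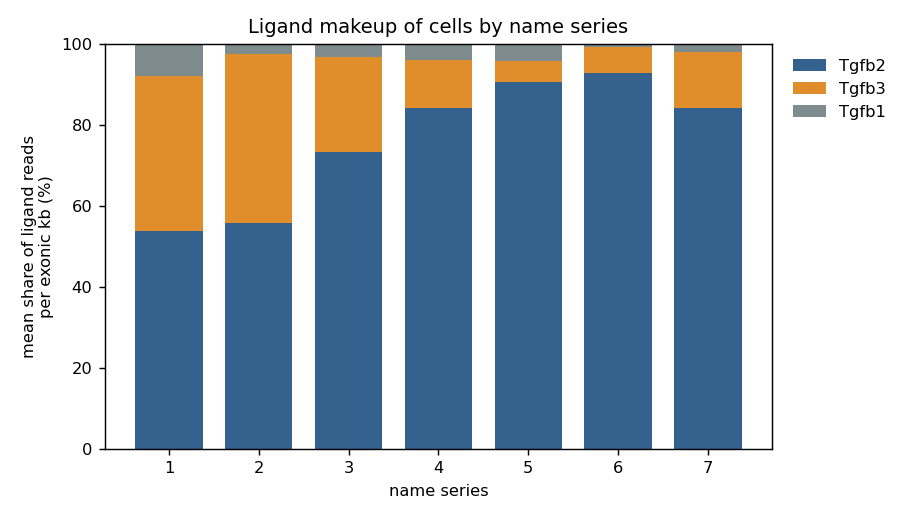
Mean share of Tgfb2, Tgfb3 and Tgfb1 in the ligand reads per exonic kilobase of a cell (vertical axis, percent) by name series (horizontal axis), over the cells with any ligand read. The Tgfb2 part grows from 53.8% in series 1 to 92.9% in series 6, and Tgfb1 stays at or below 8.03% in every series.

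At 10 CPM, most cells had a ligand detected, but few had both signalling receptors detected. Any ligand was detected in 92.2% of cells (88.5% to 94.98%), and all 3 in 14 cells, or 4.76%. Tgfbr1 and Tgfbr2 were detected together in 62 cells, or 21.1% (16.6% to 26.2%), and in 16.5% without series 1. By series, that share was 39.7%, 31.25%, 21.05%, 15.8%, 8.82%, 8.82% and 9.09%. Tgfbr1 was detected without Tgfbr2 in 38.1% of cells, Tgfbr2 without Tgfbr1 in 27 cells, or 9.18%, and neither in 93 cells, or 31.6%. A ligand with both receptors was found in 60 cells, or 20.4%. Tgfb2 and Ltbp1 with both receptors were found in 52 cells, or 17.7%. The 10 CPM level bears on these shares: at 1 CPM or more, Tgfbr1 was detected in 72.1% of cells and Tgfbr2 in 41.2%. Of the 58 cells of series 1, only 2 had no Tgfbr1 read and 2 had no Tgfbr2 read. That did not hold in every series: 28 of 38 cells in series 4, and 29 of 34 in each of series 5 and 6, had no Tgfbr2 read. A cell not counted here may still hold transcripts of both receptors, since capture is incomplete, but the reads of series 1 do not show this for other series.

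For the pairs of members examined, the share of cells with both lay within 2.6 percentage points of what their separate shares within name series gave. For 16 pairs of members, the frequency of double-positive cells was set against the product of their shares within each series, summed over series, and 11 pairs lay above it. No product lay outside the exact interval of the observed share. Tgfb2 and Ltbp1 were detected together in 71.4% of cells against a product of 71.2%. Tgfb2 and Tgfbr1 were together in 50.3% against 49.5%. The largest differences were in Tgfbr1 with Tgfbr2, at 21.1% against 18.5%, and in Tgfbr2 with its co-receptor Tgfbr3, at 7.14% against 4.93%. The interval is that of the double-positive share alone, and no test of independence was made. Whether these differences exceed counting error was therefore not tested.

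**Figure D4:**
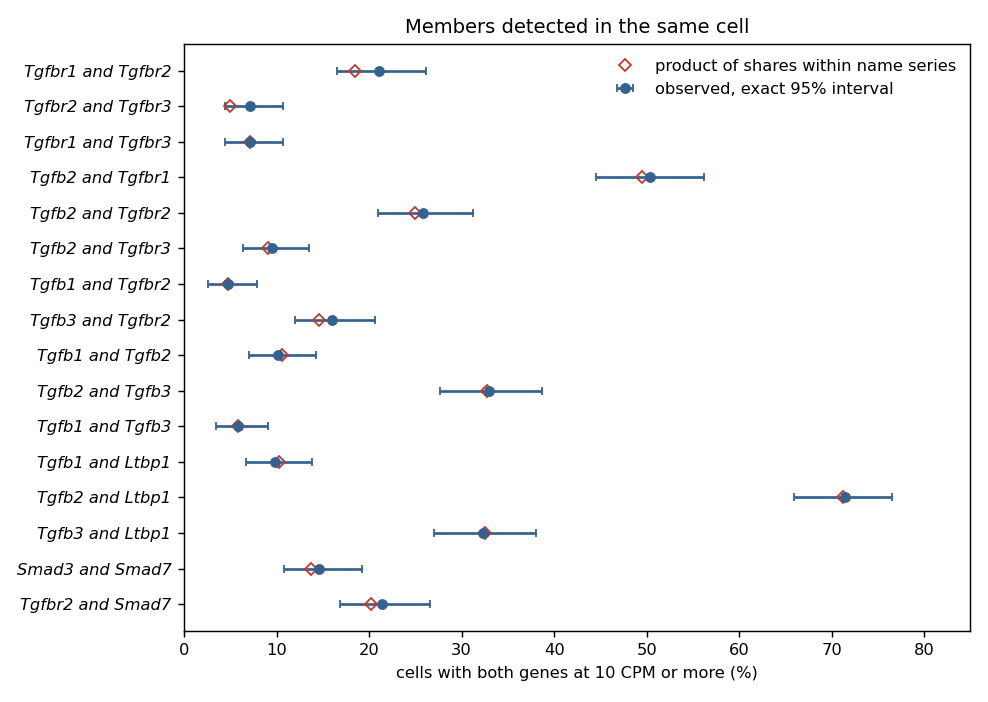
Double-positive cells, in which each gene of a pair reached 10 CPM (horizontal axis, percent; blue points with exact 95% intervals) and the product of the separate shares within name series (red diamonds), for 16 pairs. Each diamond lies inside its interval, and the widest gaps are for Tgfbr1 with Tgfbr2 (21.1% against 18.5%) and Tgfbr2 with Tgfbr3 (7.14% against 4.93%).

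Levels of the members were then compared across the cells of each series by Spearman's correlation of log2(CPM + 1), and the median over series was taken. A pair was called when this median was at least 0.2 in size with 1 sign in every series that gave a value. Cells of a series share their unknown source and differ in depth, so these correlations are descriptions. None of the 36 pairs of members was called. Tgfbr2 and Tgfbr3 had the highest median, 0.20, with series between -0.06 and 0.25. Tgfbr1 and Smad7 followed at 0.19, with series between -0.39 and 0.49, and the lowest median was that of Tgfbr3 and Ltbp1 at -0.13. Leaving out series 2 gave 1 call in place of 0.

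Few pairs of a member and a contractile gene met the call within series. Each of the 9 members was paired with each of 15 contractile genes, and 1 pair was called (0.741%): Tgfb3 with Actg2, the enteric smooth muscle actin, at -0.22 with series from -0.30 to -0.11. Over all genes and members, 0.0464% of pairs were called negative and 0.255% positive. With 1 pair, no more can be read from that count, and leaving out series 6 or series 7 gave 2. Sparse genes are poorly covered by this call: Mylk and Myh11 were detected in 0.0% of cells in series 4 to 6. A series in which no cell had a read of a gene gave no value, so 1 sign was then asked of fewer series. In name series with 5 cells of each gene, an alternative chosen after seeing the data, 4 pairs were called, 3 positive and 1 negative. Few calls therefore do not show that a relation is absent. Acta2, the smooth muscle actin used to mark contractile cells, had medians from -0.13 (Tgfb3) to 0.13 (Tgfb1 and Tgfb2). Tgfb2 had its highest contractile correlations with Cnn1, encoding calponin, at 0.26, and Cald1, encoding caldesmon, at 0.20, but the series ran from -0.18 to 0.34 and from -0.10 to 0.35. The median over the 15 genes was 0.10 for Tgfb2, against 0.03 over all genes, and -0.08 for Tgfb3, against 0.01. Tgfbr2 was lowest with Tagln at -0.17, and Tgfbr3 with Tagln at -0.14.

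Matrix genes gave 3 calls in 180 pairs (1.67%), all positive. Tgfb2 was called with Col1a2, a chain of type I collagen, at 0.21. Tgfb3 was called with Vcan, encoding the proteoglycan versican of the cushions, at 0.23, and Smad7 with Col1a1, the other chain of type I collagen, at 0.23. In each of the 3 the lowest series rounded to 0.00. The background for positive calls was 0.215% of genes for Tgfb2, 0.124% for Tgfb3 and 0.0565% for Smad7. It was 0.836% for Tgfb1, 0.362% for Tgfbr1, 0.102% for Tgfbr2, 0.418% for Tgfbr3, 0.181% for Smad3 and 0.0% for Ltbp1, none of which had a matrix call. The correlations were weak in sparse counts, and all 3 calls were lost at a median of 0.3. Leaving out series 2 gave 1 matrix call and leaving out series 4 gave 5. Tgfb3 with Dcn, encoding decorin, reached 0.24 without being called, with series from -0.04 to 0.40. Tgfbr3 with Fbln1 reached 0.26 (-0.19 to 0.37) and Ltbp1 with Fbln2 reached 0.21 (-0.13 to 0.35), both genes encoding fibulins.

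Across all cells at once, ignoring the series, far more pairs passed 0.2. Of the contractile pairs 22 did (16.3%), all positive, and of the matrix pairs 37 were positive (20.6%) and 8 negative (4.44%). The background rose as well, to 11.7% of all pairs positive and 1.11% negative. Tgfb3 was at 0.43 with Dcn, 0.39 with Mgp, which encodes matrix Gla protein, and 0.38 with Bgn, which encodes biglycan. Tgfbr2 was at 0.42 with Dcn, 0.41 with Mgp and 0.37 with Eln, which encodes elastin. Tgfbr3 was at 0.47 with Mylk, the myosin light chain kinase of smooth muscle, and at 0.43 with Myh11, the smooth muscle myosin heavy chain. Ltbp1 ran the other way, with -0.37 for Dcn and -0.28 for Postn, which encodes periostin. The contractile and matrix pairs called within series did not pass 0.2 here. Tgfb3 was at 0.05 with Actg2 and -0.06 with Vcan, Tgfb2 at -0.04 with Col1a2 and Smad7 at 0.08 with Col1a1.

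Leaving out series 1 lowered most of these pooled correlations. The background of positive pairs fell to 1.33%, the contractile pairs to 1 and the matrix pairs to 15, of which 13 were positive. Tgfbr3 fell from 0.47 to 0.11 with Mylk and from 0.43 to 0.06 with Myh11. Tgfbr2 was at 0.07 with Mylk and 0.06 with Myh11. With the matrix genes, Tgfbr3 fell from 0.40 to 0.10 for Dcn, from 0.37 to 0.12 for Bgn and from 0.28 to 0.02 for Mgp, and Tgfb1 fell from 0.30 to 0.05 for Dcn. Tgfb3 stood at 0.31 for Dcn, 0.32 for Mgp and 0.26 for Bgn, and Tgfbr2 at 0.26, 0.29 and 0.24. Within name series the same pairs had lower medians, such as 0.24 for Tgfb3 with Dcn.

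**Figure D5:**
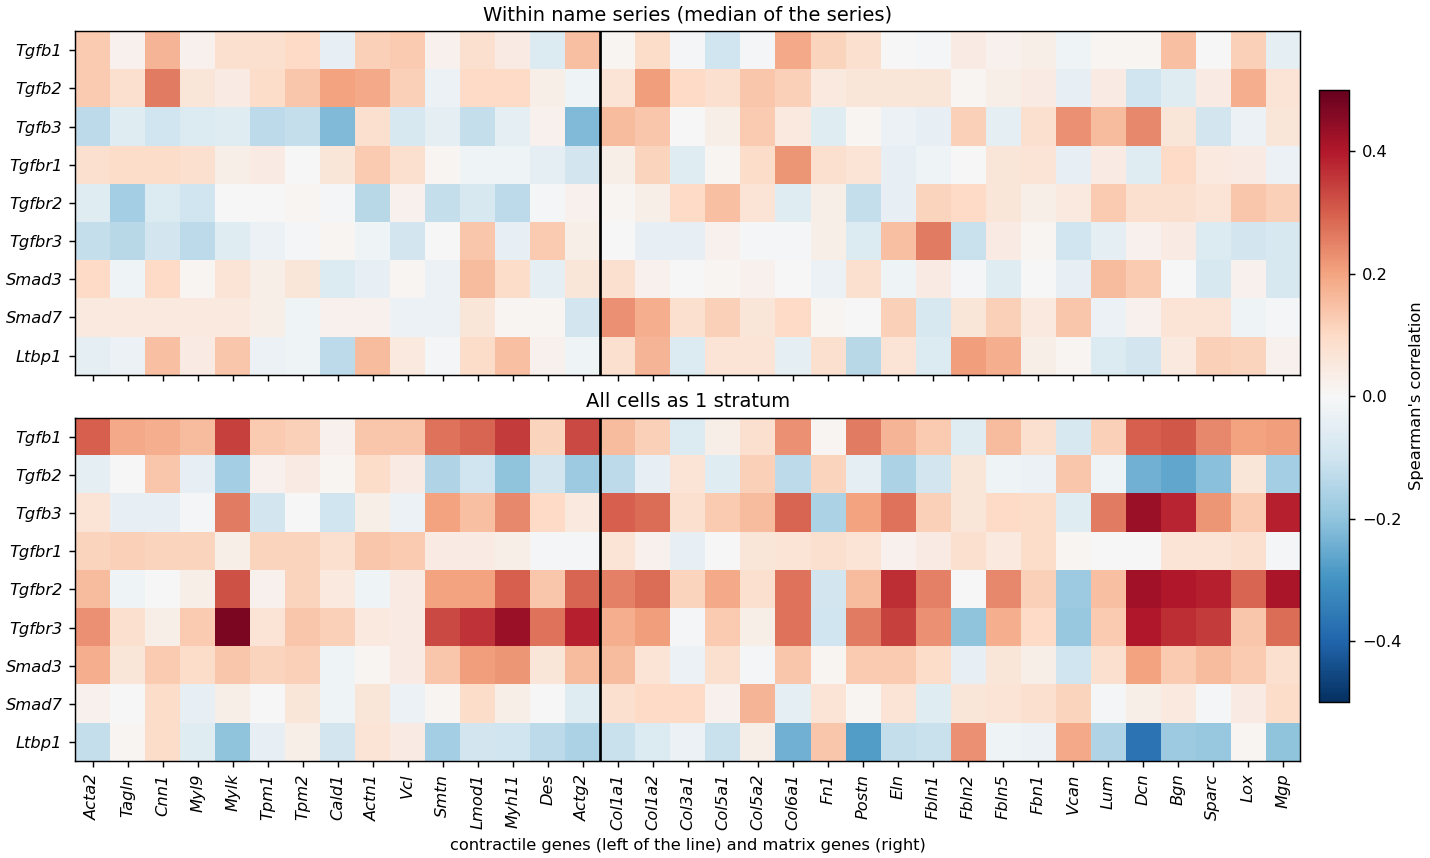
Spearman's correlation (colour, from blue for negative to red for positive) of each of the 9 genes (rows) with 15 contractile genes (left of the line) and 20 matrix genes (right), as the median within name series (top) and over all cells as 1 stratum (bottom). The top panel is pale, with 1 contractile and 3 matrix pairs called, and the bottom panel has rows of darker red for Tgfb1, Tgfb3, Tgfbr2 and Tgfbr3, up to 0.47 for Tgfbr3 with Mylk. Over all cells as 1 stratum, 36.95% of all genes passed 0.2 with Tgfbr3 and 35.05% with Tgfb1.

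Cell cycle genes gave 1 call in 63 pairs, Tgfb1 with Mcm2, a subunit of the replicative helicase, at 0.20 with series from 0.03 to 0.44. For Tgfb1, 0.836% of all genes were called positive, and after total count and genes detected were regressed out the median with Mcm2 was 0.14, below the threshold. Tgfb1 also reached 0.31 with Cdk1, the mitotic kinase, without being called. Tgfb1 was the member most tied to the number of genes detected in a cell, with a median correlation of 0.33 within series, and for Cdk1 the median was 0.09 after the same regression. Tgfbr1 was at 0.26 with genes detected, Tgfbr3 at 0.19 and the other members at 0.15 or below.

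The genes whose levels were most like each member within a series were taken from the 8853 tested, as the 3 with the highest median among genes of 1 sign in every series with a value. For Tgfb2 these were Hspb1 (0.35), a small heat shock protein, Abcc5 (0.26) and Wdr26 (0.25), and the same 3 led when genes had to reach 10 CPM in 30% of cells. Tgfb3 had Fgfr2 (0.26), a fibroblast growth factor receptor, Lama4 (0.25), a laminin chain, and Axin1 (0.25). Tgfbr1 had Wbp11 (0.27), Tns1 (0.26) and Trabd2b (0.25), the last in 5 series only. Ltbp1 had Sipa1l1 (0.20), Gata6 (0.19), a heart transcription factor, and Maf (0.19).

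For Smad7 the 3 were Zbtb18 (0.24), Col1a1 (0.23) and Gab2 (0.22). The rarer members had lists that rest on few cells. Tgfb1 had Rpa1 (0.33), Nrp1 (0.32) and Tstd2 (0.31), and Tgfbr3 had Me2 (0.34), Stx2 (0.31) and Tab1 (0.30). Tgfbr2 had Sele (0.32, from 2 series), Parp1 (0.23) and Tbck (0.23), and Smad3 had Abca8a (0.25, from 3 series), Pura (0.24) and Klf12 (0.24). With the 30% level, 0 of 3 genes were shared for Smad3 and for Tgfbr3.

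Other genes of the pathway that act on the latent complex were broadly detected. Of 14 latency and activation genes measured, 9 were detected in at least 50% of cells, with a median share of 64.97% against 14.6% over all genes of the table. The highest were Itgb1, an integrin subunit, at 96.6%, Fbn1, the microfibril protein fibrillin, at 88.8%, and Mmp14, a membrane protease, at 88.1%. The lowest were Itgb8 at 5.44%, Lrrc32, which tethers latent ligand on cell surfaces, at 5.78%, and Itgb3 at 14.3%. Among the relatives of Ltbp1, named here after their values were seen, Ltbp4 was detected in 82.65% of cells, Ltbp3 in 74.15% and Ltbp2 in 31.6%. Ltbp2 was detected in 81.03%, 45.8% and 55.3% of cells in series 1 to 3 and in 0.0% to 5.26% in series 4 to 7, opposite to Ltbp1.

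Of 20 receptor and intracellular genes, 8 were detected in at least 50% of cells, with a median of 41.8%. Fkbp1a, whose protein holds TGFBR1 inactive, led at 89.5%, followed by Bambi, a decoy receptor, and Pmepa1, a feedback inhibitor, both at 71.8%. The lowest were Zfyve9, an adaptor for receptor and SMAD, at 3.40%, Acvrl1 at 5.44% and Cd109 at 9.18%. Smad2 and Smad4, the partners of Smad3 and also named after their values were seen, were at 45.2% and 66.3%. Eng, the endoglin co-receptor, was at 34.7%, with 67.2% in series 1 and 13.6% in series 7.

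Of 15 genes known to respond early to TGF-beta, 8 were detected in at least 50% of cells, with a median of 55.1%. The list shares Pmepa1, Skil and Tgif1 with the list before. Fn1, encoding fibronectin, was at 94.2%, Tgfbi, a matrix protein, at 77.2% and Pmepa1 at 71.8%. Cdkn2b, a cell cycle inhibitor, was at 5.44% and Cdkn1a, another, at 18.7%. Tgfbi was detected in 27.1% of cells in series 2 and in 76.3% or more in each of the others, and Pmepa1 ranged from 29.4% in series 6 to 91.4% in series 1, so these genes did not share 1 order of series. Without series 1 the number at 50% or more was 8 for latency and activation, 7 for receptor and intracellular genes and 7 for early response genes.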

How the data were processed

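RNA of single cells was measured, and all cells formed 1 group. The authors deposited raw counts for 15124 genes, and a depth-corrected table of 14051 genes whose deposited values are normalised and rounded and were treated as a score. The submitters' processing notes name HISAT2 2.1.0, featureCounts, Seurat and mm10, without roles. The annotation and the use of strand in counting are not given in the sources used here. Counts were scaled to reads per 1000000 reads of the cell (CPM). Detected means 10 CPM or more. Correlations were Spearman's on log2(CPM + 1) within name series, and all comparisons ran over the 8853 genes at that level in 10% of cells or more. Shares carry exact 95% intervals. No test was made, since cells are not replicates. Totals ran from 34046 to 3033857 reads, and a share of 0 carries the upper limit of 3 counts in the cells of its group. No doublet caller was run, since cells were photographed on the chip, per the labels' protocols.

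The members and lists were chosen with earlier results of these data known. Named genes were the 9 members, the 2 highest and 2 lowest correlated genes of each list, the 3 most like each member, and the 3 most and 3 least detected genes of each pathway list, and a few others where the text says so. Not every gene that these rules name is reported here. Lengths and coordinates came from GENCODE M21 on GRCm38, and promoters from RefSeq GRCm38.p6, which matched 6 members: Tgfb3, Tgfbr3 and Smad7 had no entry used here. A planned comparison of the ligand proteins was not made. Itgb6, Cdh5, Emcn, Upk3b, Upk1b and the blood and immune markers were not analysed here. Scripts were tested on simulated data and run with Python 3.11.15, NumPy 2.4.6, SciPy 1.17.1, pandas 2.3.3 and matplotlib 3.10.9. Alternatives covered the detection level, added CPM, scaling, thinning, strata, thresholds and leaving out each name series.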

Additional observations from a re-analysis of the deposited data

How the results depend on the processing

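Read depth and the low-level reads of series 1 limit what a share of cells can show, and every count below describes 1 group of cells. No paired analysis was possible because the cells form 1 group and share no replicate numbers. Of the values recomputed for the results that answer a comparison, 70 stayed close to the reported one and 29 moved. The median number of members per cell was 5 at 1 CPM, 2 at 100 CPM and 5 at a value of 1 in the depth-corrected table, against 4, and members detected in at least 50% of cells numbered 2 at 100 CPM, against 4. The 14 differences of 2-fold between name series became 24 with 1 CPM added, 27 (19 higher and 8 lower) with medians of the cells above 0, 8 without series 1, 30 at 1.5-fold and 3 at 3-fold. The medians of cells above 0 kept 6 of the 14, and leaving out the 5% of cells highest in the gene, chosen after seeing the data, kept 8.

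The 1 contractile call became 2 with Pearson's correlation, without series 6, without series 7 and at a median of 0.15, 0 at a median of 0.3 and 22 with all cells as 1 stratum. The 3 matrix calls became 0 with Pearson's correlation and at 0.3, 1 with total count and genes detected regressed out, 1 without series 2, 5 without series 4, 7 at 0.15 and 45 with all cells as 1 stratum. Neither the 22 nor the 45 pairs included a pair called within series. The count of 0 among members became 9 with all cells as 1 stratum, and 1 after thinning and without series 2. Other alternatives chosen after seeing the data gave 4 contractile and 8 matrix calls in name series with 5 cells of each gene, and 15 matrix calls with all cells but series 1 as 1 stratum. By coding length Tgfb2 led in 81.2% of cells. The number of pairs detected together above the product stayed within 1.5 times 11 in every alternative run. Of the values for single genes, 95 stayed close and 31 moved, most of them with the detection level. The cause of these changes was not tested.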
